A study of Saccharomyces cerevisiae with 5 samples.

Results

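The a-specific genes of budding yeast, Saccharomyces cerevisiae, are a small set transcribed only or mainly in cells of mating type a. The set followed here comprised 7 genes, taken by the gene name printed in the scanner files, and it was described in 5 RNA samples. The members were STE2 (YFL026W), STE6 (YKL209C), BAR1 (YIL015W), MFA1 (YDR461W), MFA2 (YNL145W), AGA2 (YGL032C) and ASG7 (YJL170C). All 7 were on the array, among 6256 genes in all, and each was read by 1 probe printed as 7 spots. All samples were of a single strain, which the labels spell Sigma 1287b, L5366 and the paper Sigma1278b L5366, grown untreated at 30 °C to mid-log phase in a rich medium. On each array total RNA labelled with Cy3 was hybridized together with Cy5-labelled genomic DNA of the same strain. The labels give no mating type or ploidy for the strain and no genetic change, and they hold no sample of another mating type. The data therefore give the level of these genes within 1 strain and not a contrast between mating types.

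Yeast cells of mating type a secrete a-factor and respond to alpha-factor, and cells of mating type alpha do the reverse. In alpha cells and in diploids that carry both mating types, the a-specific genes are held off by the repressor alpha2 acting with the general factor Mcm1 and the corepressors Tup1 and Cyc8. In a cells alpha2 is absent, and Mcm1 activates the same promoters. A further group, the haploid-specific genes, is transcribed in both haploid types and repressed in diploids by the a1 and alpha2 proteins together.

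The 5 arrays form 1 group and were scanned in 2 sessions, arrays 4 and 5, which share a slide, in the second session and the other 3, on 2 slides, in the first. The median background-subtracted RNA signal of gene spots lay between 1406 and 1997, and the genomic DNA signal between 11288 and 12951, with no saturated spot. The study's methods speak of biological replicates, but nothing in the labels ties an RNA sample to a culture of its own, so the spread given here is that between these arrays and may be technical. The ratio of RNA to genomic DNA at a probe serves as the level of its gene, on the premise of 1 copy per genome, and RNA was always in Cy3, so an effect of dye is part of every level. Levels are given on the log2 scale relative to the median gene after quantile normalization. In bulk RNA, fewer cells that transcribe a gene and less RNA per cell cannot be told apart.

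All 7 a-specific genes stood low, except that BAR1 lay above the median gene under loess (1.39) and with the scanner software's processed signals (0.75). Each was more than 2-fold below the median gene in limma's treat test (Benjamini-Hochberg adjusted over all genes), a call that 27.5% of all genes also received. Under loess 1 of the 7, MFA2, kept this call, and STE2 (-0.69), MFA1 (-0.94), AGA2 (-1.02), ASG7 (-0.82) and STE6 (-0.53) did not. Loess centres the ratio along the mean intensity of both channels, which includes the RNA signal. It therefore also removes differences in level that go with intensity. The ribosomal protein gene RPL24A went from 4.94 to 0.035 under loess and to 0.26 with processed signals. The median level of the 7 genes was -3.54 ± 0.14 (SD, n = 5) and ranged over arrays from -3.68 to -3.39. Within the set the levels spread over 3.15 ± 0.05 log2 between the highest, STE6, and the lowest, MFA2, and these were the highest and the lowest member on each of the 5 arrays. The size of this spread depends on the background: RNA of MFA2 was above it on 3 of 5 arrays only. With negative controls subtracted in place of local background, MFA2 was at -5.44. Under loess and with processed signals BAR1, not STE6, was the highest member.

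MFA1 and MFA2 encode precursors of a-factor, the lipid-modified peptide that a cells secrete to attract alpha cells. MFA1 had levels of -3.39, -3.42, -3.56, -3.68 and -3.67 on arrays 1 to 5. Its mean was -3.54 ± 0.14 (SD, n = 5; adjusted p = 2.4e-10, limma treat). MFA2 had levels of -4.32, -4.31, -4.37, -4.50 and -4.49, a mean of -4.40 ± 0.09 (adjusted p = 1.9e-11, limma treat). The RNA of both was above background on 3 of 5 arrays only, so no exact fold below the median gene or percentile is given for them. MFA2 was below MFA1 on 5 of 5 arrays, with MFA1 over MFA2 at 0.85 ± 0.05. Both were lowest on arrays 4 and 5.

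STE6 encodes the ABC transporter that exports a-factor. It was the highest member by the ratio, with levels of -1.15, -1.20, -1.28, -1.27 and -1.35 on arrays 1 to 5 and a mean of -1.25 ± 0.07 (SD, n = 5), 2.38-fold below the median gene and at percentile 24.8 (adjusted p = 0.00012, limma treat). The margin was small: with RNA signal alone the level was -1.09 and short of the threshold (adjusted p = 0.066), and it was -0.78 with the scanner software's processed signals and -0.53 under loess, both short of it as well. STE6 exceeded MFA1 by 2.29 ± 0.08 and MFA2 by 3.15 ± 0.05, each on 5 of 5 arrays. With processed signals STE6 was at -0.78, MFA1 at -1.86 and MFA2 at -2.53, and under loess at -0.53, -0.94 and -1.32. These settings also took RPL24A from 4.94 to 0.26 and 0.035. The smaller gaps between the exporter and its cargo are thus not particular to these genes.

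STE2 encodes the receptor for alpha-factor, a G protein-coupled receptor. Its levels were -2.82, -2.79, -2.80, -2.79 and -2.74 on arrays 1 to 5, a mean of -2.79 ± 0.03 (SD, n = 5), 6.91-fold below the median gene and at percentile 10.7 (adjusted p = 4.9e-11, limma treat). No other member varied so little, and 3.33% of all genes had a smaller SD.

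BAR1 encodes the secreted protease that degrades alpha-factor outside a cells. Its levels were -1.88, -1.61, -1.80, -1.52 and -1.61, a mean of -1.68 ± 0.15 (SD, n = 5), 3.21-fold below the median gene and at percentile 19.3 (adjusted p = 2.7e-06, limma treat). It was the most variable member, with an SD at percentile 87.0 of all genes, and it was lowest on array 1.

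AGA2 encodes the binding subunit of a-agglutinin, the cell surface adhesin of a cells. It had levels of -3.79, -3.93, -3.89, -3.71 and -3.76 on arrays 1 to 5, a mean of -3.82 ± 0.09 (SD, n = 5; adjusted p = 3.4e-11, limma treat). ASG7, whose product dampens signalling by the G protein beta subunit Ste4, had levels of -4.00, -4.00, -3.85, -4.11 and -4.05, a mean of -4.00 ± 0.10 (adjusted p = 2.9e-11, limma treat). For these genes too RNA was above background on 3 of 5 arrays only, and no exact fold below the median gene or percentile is given. AGA2 and ASG7 were the only neighbours in the order that were not separated on every array: AGA2 was higher on 4 of 5 arrays, by 0.18 ± 0.17 (exact sign-flip permutation p = 0.13).

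**Figure D1:**
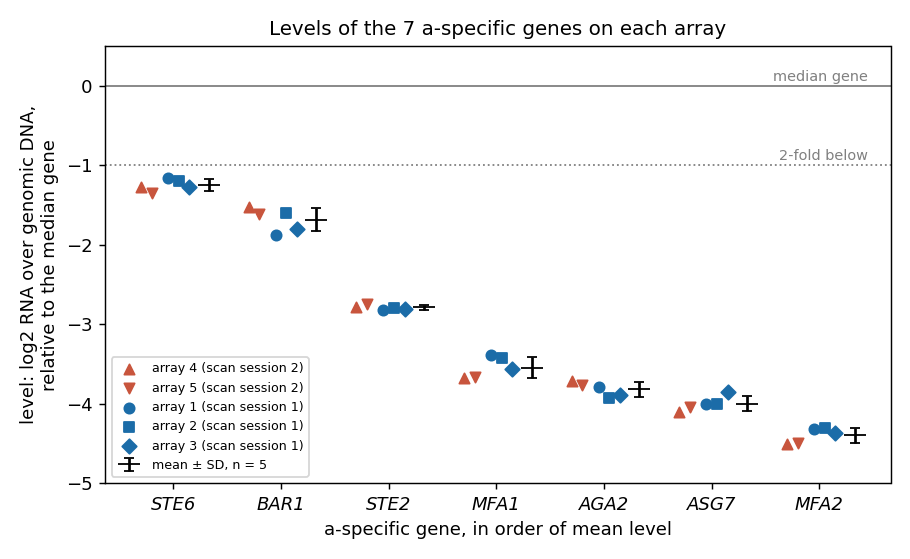
Level (log2 RNA over genomic DNA relative to the median gene) of the 7 a-specific genes on each of the 5 arrays, with red symbols for scan session 2, blue symbols for scan session 1, and the mean ± SD (n = 5) at the right of each gene. All 35 points lie below the dotted line of 2-fold below the median gene, and the order from STE6 to MFA2 is nearly the same on every array.

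Every pair of members was then compared within arrays. Of the 21 pairs, 20 had the same sign on all 5 arrays, and AGA2 against ASG7 was the exception. For each of the 20 the exact two-sided sign-flip permutation test gave p = 0.063 (adjusted p = 0.066 over 21 pairs), which is the smallest p that 5 arrays allow and does not pass 0.05. Among neighbours in the order, STE6 exceeded BAR1 by 0.43 ± 0.20, BAR1 exceeded STE2 by 1.104 ± 0.132 and STE2 exceeded MFA1 by 0.76 ± 0.16 (SD, n = 5). MFA1 exceeded AGA2 by 0.27 ± 0.21, with only 0.03 between them on the closest array, and ASG7 exceeded MFA2 by 0.40 ± 0.09. The closest steps were therefore those among AGA2 and its neighbours. The RNA of MFA1, AGA2, ASG7 and MFA2 was not above background on arrays 4 and 5, so pairs that hold these genes are less certain there.

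The place of BAR1 depended on the divisor. Its genomic DNA signal was low, at 5605 to 6684 over the arrays and percentile 2.68 of all genes, whereas the other members lay between 11200 and 17324 and between percentiles 54.2 and 73.9. By RNA signal alone BAR1 stood at -2.65 ± 0.12 relative to the median gene and STE2 at -2.61 ± 0.04, and BAR1 minus STE2 was -0.04 ± 0.11, positive on 1 of 5 arrays. The other 20 pairs had the same direction by RNA signal alone as by the ratio. MFA1, AGA2, ASG7 and MFA2 remained the lowest members by RNA signal, at -3.26 ± 0.10, -3.52 ± 0.08, -3.88 ± 0.12 and -4.00 ± 0.09.

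**Figure D2:**
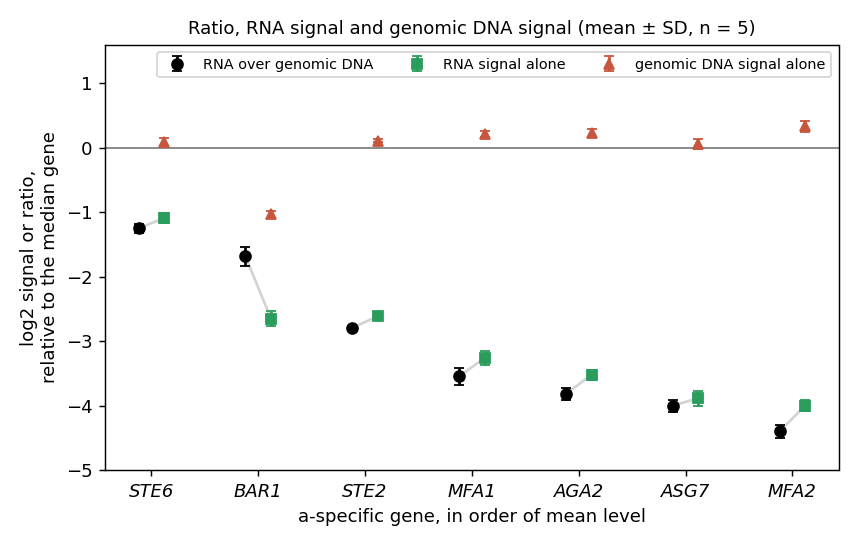
Ratio of RNA over genomic DNA (black circles), RNA signal alone (green squares) and genomic DNA signal alone (red triangles) of each a-specific gene, as log2 relative to the median gene (mean ± SD, n = 5 arrays). BAR1 alone has a genomic DNA signal well under the median gene, and its RNA signal differs from that of STE2 by less than the spread.

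Whether the RNA was above background at all was read from the scanner software's mark, counted for a gene when at least 50% of its 7 spots carried it. Genomic DNA was marked for all 7 genes on all 5 arrays. RNA was marked on every array for 3 of the 7 genes, STE6, BAR1 and STE2, compared with 90.7% of all genes. For the other 4, MFA1, AGA2, ASG7 and MFA2, RNA was marked on neither array of the second session and on all 3 arrays of the first. This pattern was found in 5.67% of all genes, and in 91.5% of the 271 genes whose mean RNA signal lay in the same range as these 4, from 107.8 to 174.8.

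Each of these 4 genes was brighter on arrays 4 and 5, where it was not marked, than on arrays 2 and 3, where it was. On array 1, where it was also marked, each was brighter than on array 4. MFA1 gave 235.1 on array 1, above 178.25 and 195.5 on arrays 4 and 5. MFA2 gave a background-subtracted RNA intensity of 120.4 and 143.4 on arrays 4 and 5, where it was not marked, against 134.7, 73.8 and 66.9 on arrays 1 to 3, where it was. AGA2 gave 166.1 and 187.5 on arrays 4 and 5, against 166.9, 104.6 and 102.0 on arrays 1 to 3. The signal at which 50% of the gene spots of an array carried the mark was 198 and 236 on arrays 4 and 5, against 87.0, 44.0 and 61.0 on arrays 1 to 3. Negative control spots were brighter in the second session too, with means of 83.0 and 87.2, against 40.0, 22.6 and 26.1 in the first.

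Set against the negative controls of its own array, each member's RNA signal was higher on 5 of 5 arrays, by a margin that differed widely. STE6 was 9.08 and 8.96 times the negative controls on arrays 4 and 5 and 24.1 to 31.8 times on arrays 1 to 3. MFA2 was 1.45 and 1.65 times on arrays 4 and 5 and 2.56 to 3.37 times on arrays 1 to 3. With a threshold at the negative controls' mean plus 2 SD, 3 of 7 genes, STE6, BAR1 and STE2, were over it on all arrays. ASG7 and MFA2 passed it on 2 arrays each, and MFA1 and AGA2 on 4 each. ASG7 and MFA2 thus lay closest to the negative controls. MFA1 was 4.64 to 6.37 times the negative controls on arrays 1 to 3, and 2.15 and 2.24 times on arrays 4 and 5. AGA2 was 3.91 to 4.63 times on arrays 1 to 3 and at most 2.15 times on arrays 4 and 5. MFA1, AGA2, ASG7 and MFA2 were lower still with the negative controls subtracted in place of local background, at -4.03, -4.45, -4.94 and -5.44.

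**Figure D3:**
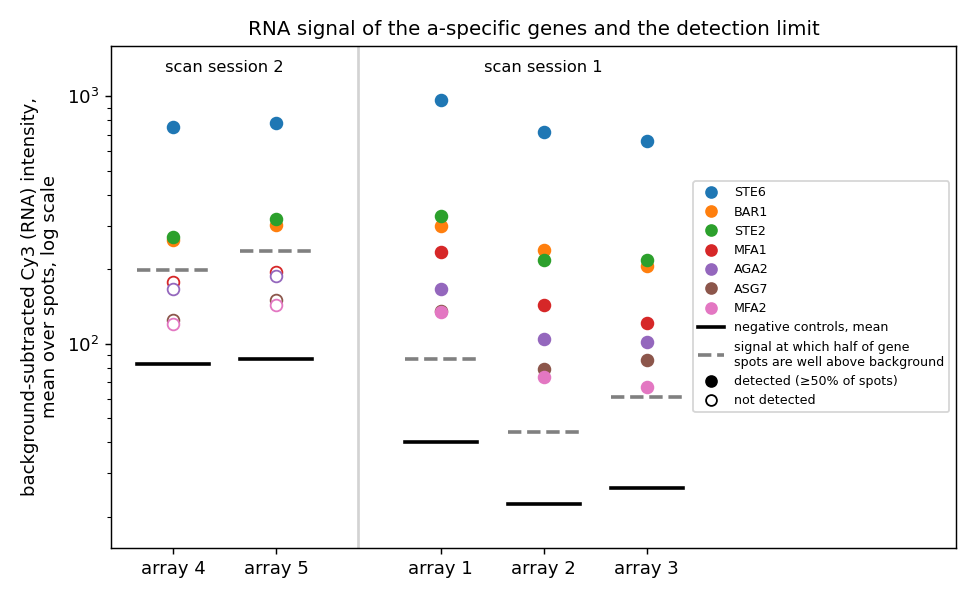
Background-subtracted Cy3 (RNA) intensity of the a-specific genes on each array, on a log scale, with scan session 2 at the left and scan session 1 at the right. Filled points carry the software's mark on at least 50% of spots, open points do not, black bars give the mean of the negative controls and dashed bars the signal at which 50% of gene spots carried the mark. The open points of session 2 are as bright as filled points of session 1. The dashed bars, which are drawn from the same mark, lie at 198 and 236 in session 2 and at 44.0 to 87.0 in session 1.

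Between scan sessions, 0 of the 7 genes passed an adjusted p of 0.05 in limma, against 2.64% of all genes. At an unadjusted p of 0.05 the count was 2 of 7, against 20.2% of all genes. MFA1 stood at -3.68 and -3.67 in the second session and at -3.39 to -3.56 in the first, a difference of -0.22 ± 0.07 (SE, adjusted p = 0.14). MFA2 differed by -0.17 ± 0.05 (adjusted p = 0.15) and BAR1 by 0.19 ± 0.09 (adjusted p = 0.26), and the remaining differences lay between -0.13 and 0.13. Levels of the sessions did not overlap for 5 members, STE2, MFA1, MFA2, AGA2 and ASG7, as for 38.9% of all genes.

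With slide as a random block the same comparison called 5 of the 7 genes, against 35.8% of all genes. MFA1 was then lower by 0.20 in the second session (adjusted p = 0.0073), as were MFA2 (-0.16, adjusted p = 0.0054) and ASG7 (-0.14, adjusted p = 0.020), while AGA2 (0.16, adjusted p = 0.015) and BAR1 (0.16, adjusted p = 0.042) were higher. That fit estimated a correlation of -0.68 between arrays of a slide. A negative correlation narrows the SE of a difference between slides, so these p-values may be too small. The calls of this fit are therefore not read as session effects. The second session lies on 1 slide, so session and slide cannot be told apart there.

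The counterparts of these genes in alpha cells were measured on the same arrays. Among receptors, STE2 lay below STE3, the receptor for a-factor (-1.09 ± 0.07), by -1.69 ± 0.09 (SD, n = 5). Among adhesins, AGA2 lay below SAG1, which encodes alpha-agglutinin (-1.63 ± 0.06), by -2.19 ± 0.07. Each held on every array, by RNA signal alone too, at -0.83 ± 0.12 for the receptors and -2.06 ± 0.07 for the adhesins. The genomic DNA signal of STE3 lay at percentile 6.47, and by RNA signal alone STE3 was at -1.78 ± 0.10. The RNA of AGA2 was above background on 3 of 5 arrays only. Under loess and with processed signals STE3 itself lay above the median gene (1.06 and 0.36).

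Among pheromones, MFA1 lay below MF(ALPHA)1 (-3.04 ± 0.23) by -0.51 ± 0.32 on 5 of 5 arrays. By RNA signal alone this order turned, to 0.60 ± 0.11 on 5 of 5 arrays. The genomic DNA signal of MF(ALPHA)1 lay at percentile 4.88. MFA2 lay below MF(ALPHA)2 (-3.21 ± 0.49) by -1.19 ± 0.41, and MF(ALPHA)2 itself differed between sessions by -0.80 ± 0.15 (SE, adjusted p = 0.044, limma). Among the barrier proteins, which degrade or hold back the pheromone of the other type, BAR1 lay above AFB1 (-4.34 ± 0.16) by 2.66 ± 0.28, and by 0.77 ± 0.15 with RNA signal alone. RNA was above background on only 3 of 5 arrays for MFA1, MFA2, MF(ALPHA)1 and AFB1, and on 4 of 5 for MF(ALPHA)2. These pairs were chosen with the values known and were not tested.

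Taken as a list, the 5 alpha-specific genes all passed as more than 2-fold below the median gene, with a median of -2.87 ± 0.18, and 10 of 11 haploid-specific genes passed, with a median of -2.68 ± 0.08, against 27.5% of all genes. STE3 passed narrowly (adjusted p = 0.024) and did not pass when array 2, 4 or 5 was left out (adjusted p = 0.0782, 0.0605 and 0.0602). The median of the a-specific genes lay below that of the alpha-specific genes by -0.67 ± 0.21 and below that of the haploid-specific genes by -0.87 ± 0.19, each on 5 of 5 arrays and with no test. The haploid-specific genes included the subunits of the G protein to which Ste2 couples, GPA1 at -2.74 ± 0.12, STE4 at -2.20 ± 0.04 and STE18 at -2.71 ± 0.02, although under loess GPA1 (0.27) and STE18 (0.32) lay above the median gene. The lowest of the haploid-specific genes was the MAP kinase gene FUS3 at -4.44 ± 0.20, with RNA above background on 3 of 5 arrays, as for STE18. The exception was STE12, the transcription factor of the pheromone response, at 0.01 ± 0.08. RNA was above background on every array for 2 of the 5 alpha-specific and 7 of the 11 haploid-specific genes, against 90.7% of all genes. With processed signals SAG1 (-0.88), MF(ALPHA)1 (-0.39), GPA1 (-0.61), STE18 (-0.62) and AXL1 (-0.33) lost the call. The haploid-specific NEJ1 (0.069) then lay above the median gene, while AFB1, MF(ALPHA)2 and FUS3 kept the call.

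RNA was also read at the probes for the mating-type genes, whose copies at MAT, HML and HMR are near identical and cannot be told apart here. MATALPHA2, the gene of the repressor that acts on the a-specific promoters, stood at -1.12 ± 0.14 (adjusted p = 0.0437, limma treat; 0.120, 0.111 and 0.118 without array 1, 4 or 5), and its RNA was marked above background on 5 of 5 arrays. HMRA1, whose sequence is that of a1, stood at 0.74 ± 0.38 and was marked on 5 of 5 arrays. The genomic DNA signal of HMRA1 lay at percentile 1.77, and by RNA signal alone it was at -0.42. That of MATALPHA2 lay at percentile 94.5, and by RNA signal alone it was at -0.12. MATALPHA1, the activator of alpha-specific genes, stood at -3.26 ± 0.59 and differed between sessions by -0.99 ± 0.17 (SE, adjusted p = 0.031, limma). The genomic DNA signal of MATALPHA1 lay at percentile 98.1, and by RNA signal alone it was at -1.64 ± 0.44. The lowest of the list was HMLALPHA1 at -3.28 ± 0.53, with its genomic DNA signal at percentile 98.3 and a level of -1.64 by RNA signal alone. All 6 probes of this list had RNA above background on every array, as 90.7% of all genes did, compared with 3 of 7 a-specific genes.

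Genes that mature and regulate the a-specific products were measured too. Of 7 genes for a-factor maturation, 1 was more than 2-fold above the median gene and 1 below, against 26.5% and 27.5% of all genes. STE24, a protease that trims the a-factor precursor, stood at 2.46 ± 0.13, and STE6 minus STE24 was -3.71 ± 0.10. AXL1, whose protease makes the last cut in a-factor and which is haploid-specific, stood at -2.13 ± 0.20, but at -0.33 with processed signals, where the call was lost, and at 0.16 under loess. Of the regulators, TUP1 (1.72 ± 0.05) and CYC8 (1.65 ± 0.07) were called above the median gene, a call that 26.5% of all genes received, and MCM1 stood at 0.52 ± 0.08 and was not called. Under loess and with processed signals TUP1 (-0.83 and -0.46) and MCM1 (-0.72 and -0.59) lay below the median gene. CYC8 (0.32 and 0.57) lost the call under both.

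Of 11 genes of the pheromone pathway and its targets, 4 were called lower and 0 higher, against 27.5% and 26.5% of all genes, from FIG1 at -4.13 ± 0.24 to STE20 at 0.49 ± 0.06. RNA was above background on only 2 of 5 arrays for FIG1, and on 3 of 5 for FUS1 and PRM1, which were also called lower. AGA1, which anchors Aga2 in the cell wall, stood at -0.85 ± 0.14. AGA2 minus AGA1 was -2.97 ± 0.13, with the same sign on 5 of 5 arrays. This value compares different probes, the RNA of AGA2 was above background on 3 of 5 arrays, and under loess AGA1 lay above the median gene (0.49).

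**Figure D4:**
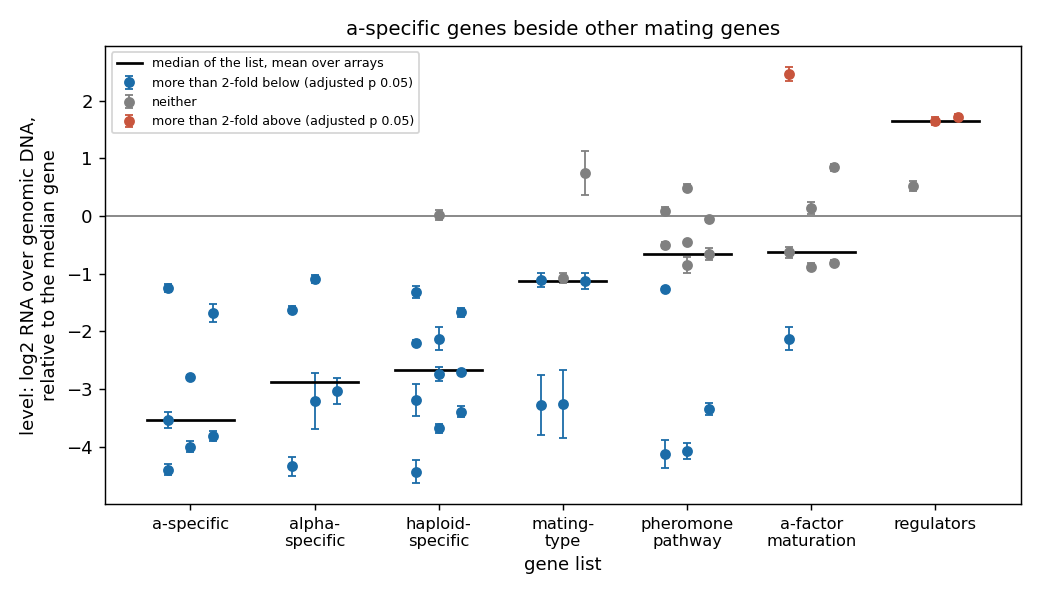
Mean level ± SD (n = 5 arrays) of each gene in the a-specific list, at the left, and in 6 other lists of mating genes, as log2 RNA over genomic DNA relative to the median gene, with AXL1 shown in both lists that hold it. Black bars give the median of each list, -3.54 for the a-specific, -2.87 for the alpha-specific and -2.68 for the haploid-specific genes. Blue points were called more than 2-fold below the median gene and red points above it.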

How the data were processed

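The 5 two-colour Agilent arrays held RNA in Cy3 and genomic DNA in Cy5. The deposited scanner files, written by Agilent Feature Extraction 10.1.1.1, hold the median intensity and local background of every spot, flags, and processed signals that this software had background-subtracted and dye-normalized. A further deposited table holds the authors' log2 RNA over DNA value of each probe. For the array design, no genome build is named in the sources read.

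Arrays 1 to 3 carry no gene names, so probes were named from arrays 4 and 5. Each channel's local background was taken off its spot median, spots with an outlier flag (1.41% to 3.81% of gene spots) were left out, log2 Cy3 over Cy5 was averaged over spots, and arrays were quantile normalized and centred on the median gene with limma 3.58.1 in R 4.3.3. The genes of the list kept 237 of 245 spots. Levels were tested with treat at a log2 change of 1, and scan sessions with lmFit and eBayes, each at a Benjamini-Hochberg adjusted p of 0.05 over 6256 genes, and both fits were tested on simulated data. Pairs of members were compared by exact sign flips over arrays.

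All 7 members, the highest and lowest gene of each list and genes tied to a member by role are named. Members, lists, the functional pairs and the outlier filter were chosen with earlier results of these data known. RefSeq for assembly R64, which held 5756 of the array's names, served only for names and gene order. Precision is limited by the number of arrays. No sequence of a probe, promoter or protein was used.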

Additional observations from a re-analysis of the deposited data

Results flagged for a closer look

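Among 78 sets of 5 array values, 4 held 1 array far from the rest, where about 1 in 20 sets would by chance. None belonged to the a-specific genes. AGA1, the partner of AGA2, had a level of -1.09 on array 3, below -0.81 to -0.74 on the other arrays. STE12 had a level of 0.16 on array 3, above -0.06 to -0.01 on the others. STE4 by RNA signal alone was at -2.12 on array 2, below -2.003 to -1.97 on the others. HOP2, a neighbour of AGA2, was by RNA signal alone at -3.83 on array 5, above -4.01 to -3.98 on the others.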

How the results depend on the processing

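The call of all 7 a-specific genes as more than 2-fold below the median gene was kept by median over spots, outlier-flag spots kept, normexp, no background subtraction, negative controls subtracted, median centring, mean genomic DNA as divisor, only spots well above background, the authors' table, either session alone and each array left out. It was 6 with RNA signal alone, 5 with processed signals and 1 (MFA2) with loess. The median level was -3.26 with normexp, -4.03 with negative controls subtracted, -1.76 with processed signals, -0.83 with loess, -3.26 with RNA signal alone, -2.82 with only spots well above background (as few as 3 members left on an array) and -3.37 in the authors' table, and -3.59 to -3.48 with single arrays left out. Members with RNA above background on every array numbered 7 in the first session alone and 3 under every other rule tried. Members that differed between sessions numbered 1 with processed signals (MFA1), 1 with median centring (ASG7), 3 with only spots well above background (STE2, STE6, MFA1) and 5 with slide as a random block. The last count rests on the negative correlation within slides, which narrows the SE. No paired analysis was possible because all arrays form 1 group, so that no replicate number is shared between groups.

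Directions turned mainly under loess: BAR1 1.39, AGA1 0.49, AXL1 0.16, GPA1 0.27, MCM1 -0.72, MF(ALPHA)1 0.64, STE12 -0.47, STE18 0.32, STE20 -0.36, STE3 1.06, TUP1 -0.83, NEJ1 0.38 and YLR202C 0.026. Processed signals turned BAR1 (0.75), MCM1 (-0.59), STE12 (-0.29), STE20 (-0.19), STE3 (0.36), TUP1 (-0.46) and NEJ1 (0.069). HMRA1 turned with RNA signal alone (-0.42). STE12, close to 0, also turned with normexp (-0.10), only spots well above background (-0.026), in the second session alone (-0.036) and without array 3 (single arrays left out: -0.023 to 0.030). Loess and processed signals also took RPL24A from 4.94 to 0.035 and 0.26, so turns under them are not read as findings about a gene. The causes were not tested.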

Other observations

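Among protein-coding genes that both the array and RefSeq name, the 7 members had 14 neighbours, with a median level of -0.61. Of these, 12 stood above their member, and 4 were called more than 2-fold below the median gene, a call that 27.5% of all genes received. The exceptions were CBT1, beside STE6, at -2.04 ± 0.10 and HOP2, a gene for meiotic chromosome pairing beside AGA2, at -3.91 ± 0.19 (SD, n = 5). HOP2 had usable spots above background in both channels on 3 of the 5 arrays. The other neighbour of AGA2 was RPL24A, a ribosomal protein gene, at 4.94 ± 0.19.

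For the 3 members with both channels above background on every array, the genes with the most similar levels were sought among 5676 others by root mean square difference over 5 arrays. GDB1 (0.04) and LIH1 (0.05) were closest to STE6, and YLR202C (0.03) and RRT6 (0.03) to STE2. NEJ1 (0.08), which is on the haploid-specific list, and YOL150C (0.08) were closest to BAR1. This likeness is one of ratios: by RNA signal alone BAR1 stood at -2.65 ± 0.12 and NEJ1 at -2.01 ± 0.09.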
